A study of Homo sapiens with 6 samples.

Results

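The insulin-like growth factor (IGF) axis was examined through 9 genes: the ligand gene IGF2, the binding protein genes IGFBP2 to IGFBP7, and the receptor genes IGF1R and IGF2R. They were taken by symbol from a table of 28395 genes in which all 9 have a row. The cells were TC28a2, an immortalised human chondrocyte line, harvested 48 h after transfection. One group of 3 libraries carried a ZEB1 overexpression vector and the other group of 3 a control vector. ZEB1 encodes a zinc finger transcription factor that represses epithelial genes, and the labels name neither promoter nor backbone of the vectors. The libraries were prepared by DRUG-seq, an inexpensive RNA-seq method for many samples. Separate cultures are not stated for the replicates, so p-values measure the spread between these samples alone, which may be technical.

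IGF ligands signal through the tyrosine kinase receptor encoded by IGF1R, which acts on the PI3K and AKT pathway and supports matrix synthesis in cartilage. The IGFBP proteins are secreted, hold IGFs away from the receptor or deliver them to it, and are themselves cut by proteases such as pappalysin, which releases the ligand. IGF2R, the cation-independent mannose 6-phosphate receptor, takes up IGF2 for degradation and sorts lysosomal enzymes. Several IGFBP genes are also known as components of the secretion of senescent cells.

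The libraries differed in depth. The ZEB1 libraries held 1277632, 1621270 and 3316228 counts in replicates 1, 2 and 3, and the controls 5359200 to 5878640. ZEB1 itself had 12267, 14047 and 6894 CPM (counts relative to the TMM-scaled library total) in ZEB1 replicates 1, 2 and 3, against 20.8 to 32.6 CPM in the controls, so all 6 libraries match their labels. The 2 shallower ZEB1 libraries were also the 2 with more ZEB1, and the effects of depth and of the ZEB1 level cannot be told apart. In ZEB1 replicate 1 the median shift from the control mean was 0.69 on the log2 scale for genes whose longest transcript is at most 1000 bases, and -0.17 for genes of over 4000 to 8000 bases. In ZEB1 replicate 3 those medians were 0.13 and -0.0055. Of the 16 chondrocyte markers listed, SOX9 was tested, with a log2 fold change of 0.01, while ACAN and COL2A1 had 0 counts in each ZEB1 library and at most 8 in a control. Chondrocyte markers, 14 of them with a count, summed to 68.8 to 82.6 CPM in ZEB1 libraries and 56.6 to 89.1 CPM in controls. Of 7 endothelial markers 2 were tested, with a median log2 fold change of 1.18. The summed list was at 9.53 to 17.4 CPM in ZEB1 libraries and 5.13 to 6.69 CPM in controls, with PECAM1 at a log2 fold change of 2.04 (edgeR adjusted p = 0.462) and CDH5 at 0 counts in each ZEB1 library. Leukocyte markers summed to 6.22 to 18.8 CPM in ZEB1 libraries and 15.9 to 20.1 CPM in controls, and hepatocyte markers to 1.78 to 8.36 CPM in ZEB1 libraries and 0.962 to 4.41 CPM in controls. Neuronal markers, led by the tubulin gene TUBB3, summed to 135 to 232 CPM in ZEB1 libraries and 209.6 to 233 CPM in controls. The part of these markers in the results was not tested.

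None of the 9 genes passed the test across all genes. IGF2 had no count in any library, and the other 8 were tested with edgeR's quasi-likelihood test, with p-values adjusted over 11329 genes. Of these 8, 0 passed an adjusted p of 0.05, where 0.00883% of all tested genes did, which was ZEB1 alone. At an unadjusted p under 0.05, 1 of the 8 was lower (IGFBP5) and 0 were higher, where 3.57% of all tested genes were lower and 5.83% higher. DESeq2 called 0 of the 8, 3 of which received an adjusted p, and 7.25% of the genes to which it gave one. The ZEB1 libraries all lay below the controls for IGFBP4 and IGFBP5 (2 of 8, against 8.16% of all tested genes) and all above them for IGFBP6 (1 of 8, against 6.96%). Fold changes were below 0 for 7 of the 8, with a median log2 fold change of -0.29, against 51.5% of all tested genes and a median of -0.01. Without ZEB1 replicate 3 they were below 0 for 6 of 8 with a median of -0.46, and without control replicate 2 for 6 of 8 with a median of -0.30. When libraries were thinned to the smallest total, which left IGFBP3 untested, it was 5 of 7 and -0.21. With ZEB1 replicates 1 and 2 left out it was 5 of 8 and -0.21, and with each library's trends with transcript length and GC content removed, an alternative chosen after seeing the data, 5 of 8 and -0.15. Seen library by library, IGFBP5 and IGF2R were lowest and IGFBP6 highest in the 2 shallower ZEB1 libraries.

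**Figure D1:**
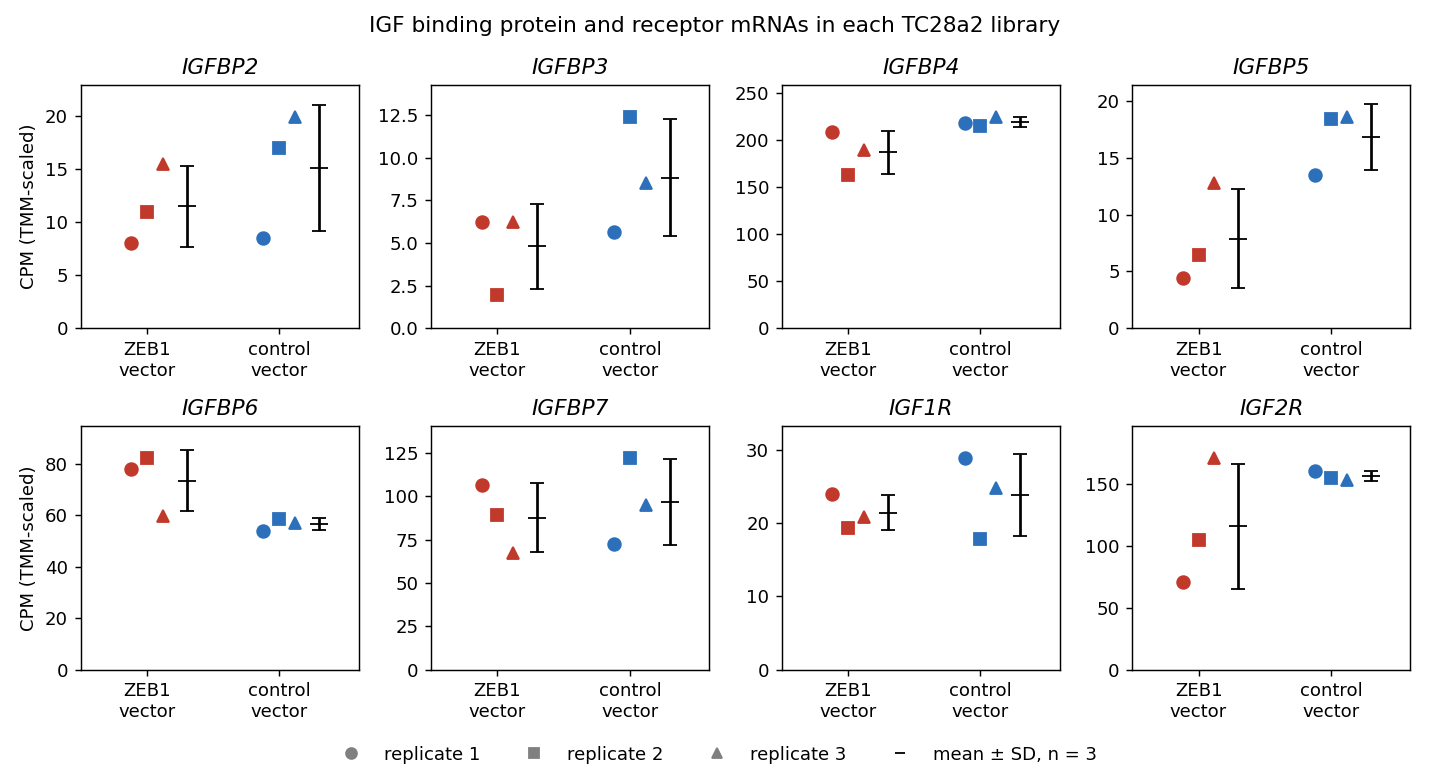
Expression of the 8 counted genes in each library, in TMM-scaled CPM on axes that start at 0, with ZEB1 vector libraries in red and control vector libraries in blue. Marker shape gives the replicate number, which does not pair the groups, and black bars give mean ± SD (n = 3). The IGF2R values of the ZEB1 libraries spread from 71.1 to 171 CPM, while the controls sit between 153 and 161 CPM.

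Sequences upstream of the genes are shown because ZEB1 is known to bind the E-box CACCTG, read as CAGGTG on the other strand. The RefSeq promoter table (GRCh38.p14) holds windows for 7 of the 9 genes, all but IGF2 and IGFBP7, and the 250 bases before each annotated start were searched on both strands. An E-box was found in 4 of the 7 genes, IGF2R with 2 and IGFBP2, IGFBP3 and IGFBP6 with 1 each. Among all genes with a window 20.6% had one in a window, as did 17.5% of the 35116 windows. A match describes letters in the window and is not a binding site shown by these data. The windows of the 3 genes whose groups did not overlap, and of IGF2R, follow 5′ to 3′ on the gene's strand, with the E-box in capitals.
IGFBP4 (chr17:40443200-40443449, plus strand): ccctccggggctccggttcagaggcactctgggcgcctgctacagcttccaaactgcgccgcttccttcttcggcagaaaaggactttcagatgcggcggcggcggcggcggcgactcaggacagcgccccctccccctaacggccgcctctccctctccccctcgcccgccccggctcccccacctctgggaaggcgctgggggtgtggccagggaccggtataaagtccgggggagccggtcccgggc
IGFBP5 (chr2:216695550-216695799, minus strand): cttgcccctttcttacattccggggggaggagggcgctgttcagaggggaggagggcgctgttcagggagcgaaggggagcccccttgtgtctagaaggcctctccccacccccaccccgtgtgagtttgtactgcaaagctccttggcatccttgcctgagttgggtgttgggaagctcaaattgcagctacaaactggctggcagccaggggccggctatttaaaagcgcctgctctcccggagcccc
IGFBP6 (chr12:53097417-53097666, plus strand): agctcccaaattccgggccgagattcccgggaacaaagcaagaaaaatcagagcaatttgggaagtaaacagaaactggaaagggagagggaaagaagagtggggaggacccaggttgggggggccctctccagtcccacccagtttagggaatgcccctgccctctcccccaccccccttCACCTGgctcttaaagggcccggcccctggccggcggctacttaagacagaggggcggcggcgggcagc
IGF2R (chr6:159968832-159969081, plus strand): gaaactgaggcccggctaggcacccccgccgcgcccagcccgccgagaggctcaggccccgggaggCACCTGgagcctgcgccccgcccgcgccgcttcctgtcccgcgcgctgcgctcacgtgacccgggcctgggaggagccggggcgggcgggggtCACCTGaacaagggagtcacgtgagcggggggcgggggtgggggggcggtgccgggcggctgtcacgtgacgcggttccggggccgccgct
The E-box began 69 bases before the start in IGFBP6 and 184 and 91 bases before it in IGF2R. The letters searched for are not in the IGFBP4 and IGFBP5 windows. IGFBP3, and IGFBP2 at the first of its 3 annotated starts, held the E-box 193 and 208 bases upstream, shown here with 12 bases on either side.
IGFBP2 (chr2:216632608-216632637, plus strand): gcgggtctgtcaCACCTGgagagctgatct
IGFBP3 (chr7:45921448-45921477, minus strand): gcgcacgaggagCAGGTGcccgggcgagtc
The IGF2R and IGF1R windows were rich in G and C, at 79.2% and 81.2%, against a median of 58.0% over all windows.

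IGF2, the ligand gene (Entrez 3481, chromosome 11, 2129117 to 2149566, minus strand), was listed at 0 in all 6 libraries. A count of 0 allows up to 0.483 CPM over the summed ZEB1 libraries and up to 0.176 CPM over the summed controls, for counting error alone. The readthrough gene INS-IGF2 spans the whole of IGF2 on the same strand, and was also at 0, as were IGF2-AS and MIR483 inside it. The labels do not say how reads shared by such genes were assigned, so the 0 limits uniquely assigned reads rather than IGF2 RNA. The other ligand gene, IGF1, was nearly uncounted too, with 0, 8 and 0 counts in ZEB1 replicates 1, 2 and 3 and 4, 5 and 2 in the controls. INS, the insulin gene, was at 0 throughout.

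Among the binding proteins IGFBP4 (Entrez 3487, chromosome 17, 40443450 to 40457725) is an inhibitor of IGF action that pappalysin cleaves. It had 209, 163 and 189 CPM in ZEB1 replicates 1, 2 and 3, against 219, 215 and 225 CPM in control replicates 1, 2 and 3. Every ZEB1 library lay below every control, by a small margin in replicate 1. The means were 187 ± 23.2 CPM with the ZEB1 vector and 219.6 ± 5.10 CPM with the control vector (SD, n = 3 each). edgeR gave a log2 fold change of -0.23 (SE 0.15), with a 95% interval of -0.55 to 0.08 and an edgeR adjusted p of 0.682. It was -0.15 without ZEB1 replicate 2. With the length and GC trends removed the log2 fold change was 0.018, while the median of all genes moved by 0.11.

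IGFBP5, which binds IGFs and extracellular matrix, is one of the IGFBP genes of chromosome 2 (Entrez 3488, 216672105 to 216695549, minus strand). It had 5, 10 and 43 counts in ZEB1 replicates 1, 2 and 3, against 84, 101 and 114 counts in control replicates 1, 2 and 3. Scaled to depth these were 4.44, 6.43 and 12.8 CPM with the ZEB1 vector, against 13.5, 18.4 and 18.6 CPM with the control vector. The groups did not overlap, although ZEB1 replicate 3 lay just under control replicate 1. The means were 7.89 ± 4.37 CPM with the ZEB1 vector and 16.8 ± 2.91 CPM with the control vector (SD, n = 3 each), a ratio of 0.469. Its fitted log2 fold change was -0.98 (SE 0.44), with a 95% interval of -1.91 to -0.06, an unadjusted p of 0.0381 and an edgeR adjusted p of 0.499. It was -1.61 without ZEB1 replicate 3 (adjusted p = 0.0900) and -0.40 without ZEB1 replicates 1 and 2, and lay between -1.61 and -0.40 under all alternatives. With length and GC trends removed it was -0.80. The shifts of the 3 ZEB1 libraries from the control mean were -1.79, -1.31 and -0.37 on the log2 scale, where the medians of genes of over 4000 to 8000 bases, its length class, were -0.17, -0.026 and -0.0055. RefSeq also annotates IGFBP-AS1, antisense by its name, over 1104 bases of IGFBP5, and LOC124900515 over 10326 bases. Neither is among the genes that were counted, so whether they had reads is not known. Their strands were not available, and the strand setting of the counting is not stated.

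IGFBP2 lies next to IGFBP5, 7668 bases away and on the opposite strand (Entrez 3485, chromosome 2, 216632828 to 216664436). Its protein binds IGF2 with preference and carries an integrin-binding motif. It had 7.997, 10.9 and 15.5 CPM in ZEB1 replicates 1, 2 and 3, against 8.50, 17.0 and 19.9 CPM in control replicates 1, 2 and 3. Here the groups overlapped, because control replicate 1 lay between ZEB1 replicates 1 and 2. Its fitted log2 fold change was -0.34 (SE 0.43) and had an interval of -1.25 to 0.56 (edgeR adjusted p = 0.866). It was -0.67 without ZEB1 replicate 3, -0.17 without ZEB1 replicate 1, -0.65 without control replicate 1 and -0.11 without control replicate 3, and turned to 0.031 with ZEB1 replicates 1 and 2 left out. With length and GC trends removed it was -0.096.

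IGFBP3, which carries most circulating IGF (Entrez 3486, chromosome 7, 45912245 to 45921272, minus strand), was near the limit of what these libraries could measure. It had 7, 3 and 21 counts in ZEB1 replicates 1, 2 and 3, against 35, 68 and 52 counts in the controls. In CPM these were 6.22, 1.93 and 6.26 with the ZEB1 vector and 5.61, 12.4 and 8.49 with the control vector. The low value of ZEB1 replicate 2 rests on 3 counts, and control replicate 1 lay below the other 2 ZEB1 libraries. The log2 fold change of -0.85 had an SE of 0.61 and an interval of -2.13 to 0.43 (edgeR adjusted p = 0.723). It was -0.50 without ZEB1 replicate 2, -0.54 without control replicate 2 and -1.18 without ZEB1 replicate 3. Its neighbour IGFBP1, 18584 bases away, had 2 counts, both in control replicate 2.

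IGFBP6, which binds IGF2 in preference to IGF1, was the one gene of the 8 with a fold change above 0 (Entrez 3489, chromosome 12, 53097667 to 53102340). It had 78.2, 82.3 and 59.9 CPM in ZEB1 replicates 1, 2 and 3, against 54.1, 58.7 and 57.0 CPM in control replicates 1, 2 and 3. Every ZEB1 library lay above every control, but replicate 3 by little. The means were 73.5 ± 11.9 CPM with the ZEB1 vector and 56.6 ± 2.35 CPM with the control vector (SD, n = 3 each), a ratio of 1.30. edgeR gave a log2 fold change of 0.36 (SE 0.20), with an interval of -0.06 to 0.79 and an edgeR adjusted p of 0.616. It stayed above 0 under all 20 alternatives, between 0.076 with ZEB1 replicates 1 and 2 left out and 0.50. With every ZEB1 library above every control, leaving libraries out could hardly turn the sign. The shifts of the ZEB1 libraries from the control mean were 0.46, 0.54 and 0.082 on the log2 scale, where the medians of genes of over 1000 to 2000 bases, its length class, were 0.16, 0.026 and 0.028. With length and GC trends removed the log2 fold change was 0.50 (edgeR adjusted p = 0.434), while the median of all genes moved by 0.11.

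IGFBP7, a secreted protein with low affinity for IGFs that is linked to senescence, had 107, 89.4 and 67.0 CPM in ZEB1 replicates 1, 2 and 3 (Entrez 3490, chromosome 4, 57030773 to 57110385, minus strand). The controls had 72.5, 122 and 94.8 CPM. The groups overlapped over most of their range and were widely spread, with 87.7 ± 19.9 CPM in ZEB1 libraries and 96.5 ± 24.9 CPM in controls (SD, n = 3 each). This gave a log2 fold change of -0.16 (SE 0.22) and an interval of -0.62 to 0.30 (edgeR adjusted p = 0.876). It was -0.53 with ZEB1 replicates 1 and 2 left out (unadjusted p = 0.0260, adjusted p = 0.610), -0.32 without ZEB1 replicate 1 and -0.34 without control replicate 1. The sign turned without ZEB1 replicate 3 (0.0094) and without control replicate 2 (0.046). The last 386 bases of IGFBP7 overlap the end of POLR2B, which runs on the other strand and had 1662 counts in all, so reads there cannot be told apart without a known strand setting.

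**Figure D2:**
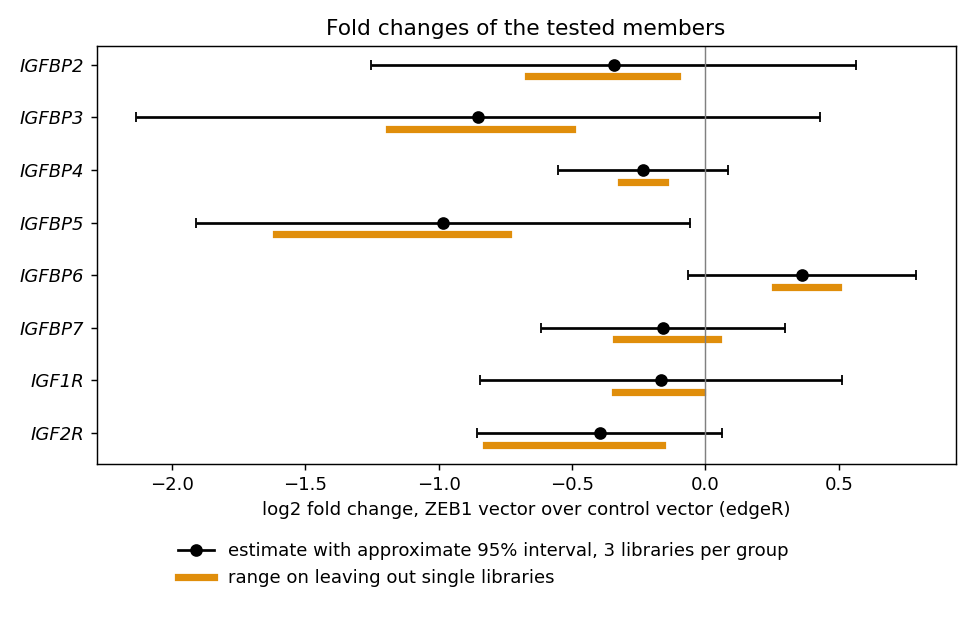
Log2 fold changes, ZEB1 vector over control vector, of the 8 tested genes (edgeR, n = 3 libraries per group). Black bars are approximate 95% intervals and orange bars the range on leaving out single libraries. The interval of IGFBP5, -1.91 to -0.06, is the one that does not reach 0, before adjustment over 11329 genes.

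The receptor genes differed in their spread. IGF1R, the signalling receptor (Entrez 3480, chromosome 15, 98648539 to 98964530), had 24.0, 19.3 and 20.9 CPM in ZEB1 replicates 1, 2 and 3, against 28.9, 17.9 and 24.8 CPM in control replicates 1, 2 and 3. All ZEB1 values lay within the control range. This gave a log2 fold change of -0.17 (SE 0.32) and an interval of -0.84 to 0.51 (edgeR adjusted p = 0.921). It was -0.34 without control replicate 2, -0.015 without control replicate 1 and -0.11 without ZEB1 replicate 2. The sign turned with libraries thinned to the smallest total (0.046) and with length and GC trends removed (0.082).

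IGF2R (Entrez 3482, chromosome 6, 159969082 to 160111504) had 80, 163 and 574 counts in ZEB1 replicates 1, 2 and 3, against 1002, 848 and 940 counts in the controls. These were 71.1, 105 and 171 CPM with the ZEB1 vector, against 161, 155 and 153 CPM with the control vector. The controls were close together, ZEB1 replicates 1 and 2 were far below them, and ZEB1 replicate 3 was above them. The means were 116 ± 50.8 CPM in ZEB1 libraries and 156 ± 3.93 CPM in controls (SD, n = 3 each). Over all libraries the log2 fold change was -0.40 (SE 0.22) and had an interval of -0.86 to 0.06 and an edgeR adjusted p of 0.610. Without ZEB1 replicate 3 it was -0.82 and passed (adjusted p = 0.0207), among 409 of 12095 tested genes that passed in that setting. With ZEB1 replicates 1 and 2 left out it was 0.12. It was -0.16 without ZEB1 replicate 1, -0.32 without ZEB1 replicate 2 and -0.23 with length and GC trends removed. The shifts of the ZEB1 libraries from the control mean were -1.13, -0.57 and 0.13 on the log2 scale, where the medians of genes over 8000 bases, its length class, were -0.17, 0.015 and -0.0065. A single ZEB1 library thus decides the call for IGF2R, and the values of ZEB1 replicates 1 and 2 come from the shallower libraries with more ZEB1.

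Levels of different genes were set side by side per kilobase of the longest GENCODE v29 transcript. How DRUG-seq reads were spread along transcripts is not given in the labels, and the order would differ for counts taken from transcript ends alone. Before this division IGF2R had a mean of 156 CPM in controls, above IGFBP7 (96.5) and IGFBP6 (56.6). In ZEB1 libraries its mean was 116 CPM, above IGFBP7 (87.7) and IGFBP6 (73.5), although in ZEB1 replicate 1 it lay below both. The place of IGF2R in the order thus depends on the division by length. IGFBP4 was highest in both groups, at 85.0 ± 10.5 CPM per kilobase with the ZEB1 vector and 99.8 ± 2.32 with the control vector (SD, n = 3 each). In ZEB1 libraries it was followed by IGFBP6 (62.4), IGFBP7 (61.4) and IGF2R (8.23). In controls the order was IGFBP7 (67.6), IGFBP6 (48.1) and IGF2R (11.1). The IGFBP6 and IGFBP7 ranges overlapped in the ZEB1 libraries but not in the controls. The remaining 4 counted genes lay between 1.27 for IGFBP5 and 2.60 for IGFBP2 in ZEB1 libraries, and between 1.95 for IGF1R and 3.66 for IGFBP3 in controls, and each overlapped its neighbour in that order.

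Ratios within a library do not depend on how libraries are scaled. IGFBP6 made up 18.97%, 23.3% and 17.1% of the summed IGFBP2 to IGFBP7 counts in ZEB1 replicates 1, 2 and 3, against 14.5%, 13.2% and 13.4% in control replicates 1, 2 and 3. The exact (Clopper-Pearson) 95% intervals were 15.5% to 22.8%, 19.8% to 27.0% and 14.96% to 19.3% in the ZEB1 libraries, and together ran from 11.9% to 16.0% in the controls. They cover counting error alone and would be wider if reads are copies of the same molecules. IGFBP5 made up 1.08%, 1.82% and 3.65% in ZEB1 replicates 1, 2 and 3, against 3.61%, 4.15% and 4.39% in the controls, so that the groups overlapped at ZEB1 replicate 3 and control replicate 1. The ratio of IGFBP6 to IGFBP5 counts was 17.6, 12.8 and 4.67 in ZEB1 libraries and 4.01, 3.19 and 3.06 in controls. These do not overlap, which was fixed by IGFBP6 lying above and IGFBP5 below all controls in every ZEB1 library. The separation of this ratio therefore adds nothing to those values. The ratios of ZEB1 replicates 1 and 2 rest on 5 and 10 IGFBP5 counts. The longest transcripts of IGFBP6 and IGFBP5 have 1177 and 6215 bases. Median shifts of their length classes in ZEB1 replicate 1 were 0.16 and -0.17 on the log2 scale, and their part in the ratio was not tested. IGFBP4 and IGFBP7 shares overlapped between the groups, with IGFBP4 at 46.0% to 54.0% in ZEB1 libraries and 48.5% to 58.7% in controls. The ratio of IGFBP5 to IGFBP4 counts overlapped, at 0.021, 0.040 and 0.068 in ZEB1 libraries and 0.062, 0.086 and 0.083 in controls. That of IGFBP6 to IGFBP4 was 0.374, 0.506 and 0.316 in ZEB1 libraries and 0.247, 0.273 and 0.253 in controls. Its separation was likewise fixed by the values of the genes. The ratio of IGF2R to IGF1R counts was 2.96, 5.43 and 8.20 in ZEB1 libraries and 5.57, 8.65 and 6.18 in controls, which overlapped. These ratios were chosen after the values were seen and carry no test.

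**Figure D3:**
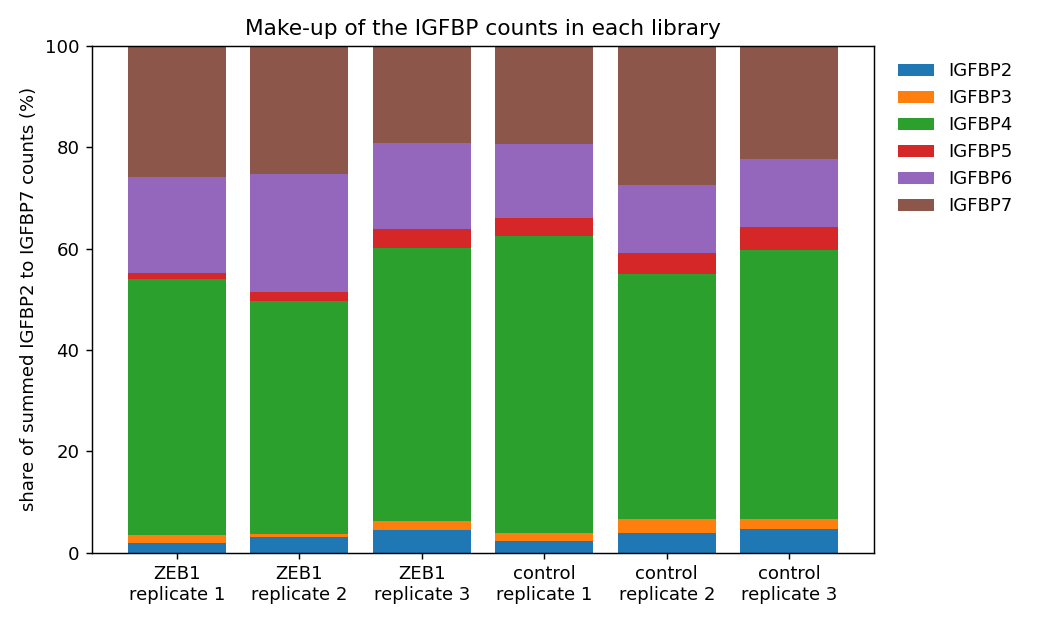
Share of each gene in the summed IGFBP2 to IGFBP7 counts of a library, in percent, with ZEB1 vector libraries on the left and control vector libraries on the right. IGFBP4 takes 46.0% to 54.0% in ZEB1 libraries and 48.5% to 58.7% in controls, and the IGFBP6 band is widest in ZEB1 replicate 2, at 23.3%.

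Of 85 other genes of the axis, in 7 lists, 63 were tested in edgeR and 0 passed. DESeq2 gave an adjusted p to 19 of them and called 0, where it called 7.25% of all genes with one. An unadjusted edgeR p under 0.05 was reached by 8 of the 63, of which 5 were lower and 3 higher, where 3.57% of all tested genes were lower and 5.83% higher. Those 8 genes, HTRA1, PLAU, CCN2, NAGPA and PACS1 below and RHEB, VPS35 and VPS29 above, are given as values, and those outside the fixed naming rule were named after their values were seen. The medians of the lists are read against the median of -0.01 over all tested genes.

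Genes for IGFBP-cleaving proteases and their regulators had 6 of 8 tested members below 0 and a median log2 fold change of -0.39. The median was -0.22 without ZEB1 replicate 2, -0.13 with ZEB1 replicates 1 and 2 left out and -0.18 with length and GC trends removed. It was further from 0 without ZEB1 replicate 3 (-0.58), without control replicate 2 (-0.50) and with libraries scaled by their totals alone (-0.53). PAPPA, the gene of pappalysin, had too few counts to be tested (0, 2 and 5 in ZEB1 replicates 1, 2 and 3, against 2, 10 and 15 in the controls). Its inhibitors are the stanniocalcins. STC2 had 189, 154 and 263 CPM in ZEB1 replicates 1, 2 and 3, against 299.6, 217 and 284 CPM in the controls, and STC1 had 86.2, 32.2 and 98.3 CPM in ZEB1 libraries, against 111, 115 and 96.0 CPM in controls. Both overlapped the controls through ZEB1 replicate 3, with log2 fold changes of -0.39 (SE 0.19) and -0.55 (SE 0.27). HTRA1, a serine protease that can cleave IGFBP5, had 29.3, 25.1 and 27.1 CPM in the ZEB1 libraries, against 35.6, 47.8 and 50.9 CPM in the controls, without overlap (log2 fold change -0.72, SE 0.26, edgeR adjusted p = 0.350). PLAU, the urokinase gene, had a log2 fold change of -0.43 (SE 0.18). Without ZEB1 replicate 3, PLAU (-0.71, adjusted p = 0.0173) and STC2 (-0.65, adjusted p = 0.0482) passed. They were among 409 of 12095 tested genes that passed in that setting.

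The IGFBP-related secreted proteins, matricellular proteins with an IGFBP-like domain among them, had 5 of 5 tested members below 0 with a median log2 fold change of -0.38, or 3 of 5 and -0.095 with ZEB1 replicates 1 and 2 left out. CCN2, also known as connective tissue growth factor, had 139.5, 138 and 133 CPM in ZEB1 replicates 1, 2 and 3, against 181, 169.5 and 181 CPM in control replicates 1, 2 and 3. The ZEB1 libraries were closely grouped and all below the controls, at a log2 fold change of -0.38 (SE 0.15, edgeR adjusted p = 0.423). CCN1 had a log2 fold change of -0.19 (SE 0.16) and ESM1, which encodes endocan, -0.30 (SE 0.33).

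Among the other ligand, receptor and binding protein genes, INSR, the insulin receptor gene, was at -0.14 (SE 0.32). On leaving out single libraries INSR ran from -0.46 without ZEB1 replicate 2 to 0.15 without control replicate 3. IGFBPL1 had at most 7 counts in a library. Downstream of the receptor the values lay on both sides of 0. Receptor adaptors had 4 of 10 below 0 and a median log2 fold change of 0.03, with the phosphatase genes PTPN1 and PTPN11 at 0.05 and 0.16 and GIGYF2, a GRB10 partner, at -0.26. PI3K, AKT and mTOR genes had 11 of 22 below 0 and a median of -0.0015, with the translation repressor gene EIF4EBP1 at -0.15, AKT1 at -0.22 and RHEB, the activator of mTOR, at 0.39 (SE 0.18, edgeR adjusted p = 0.528). When libraries were scaled by their totals alone, moving the median of all genes by -0.13, 8 of 10 adaptor genes and 14 of 22 PI3K, AKT and mTOR genes were below 0, with medians of -0.085 and -0.12. With length and GC trends removed, moving the median of all genes by 0.11, 4 of 10 adaptor genes (median 0.23) and 6 of 22 PI3K, AKT and mTOR genes (median 0.17) were below 0. On leaving out single libraries the medians ran from -0.050 without control replicate 1 to 0.043 without control replicate 2 for the adaptors, and from -0.018 without ZEB1 replicate 2 to 0.062 without ZEB1 replicate 1 for the PI3K, AKT and mTOR genes. The list of IGF2 mRNA-binding proteins and genes of the IGF2 locus also held LIN28B, HMGA2, PLAG1 and CTCF. Its locus genes INS-IGF2 and IGF2-AS had 0 counts. Of this list 3 of 5 tested genes were below 0, with a median of -0.18. The median turned to 0.052 (3 of 6 below 0) without ZEB1 replicate 1 and to 0.047 (2 of 6) with ZEB1 replicates 1 and 2 left out, and was -0.11 (4 of 6) without ZEB1 replicate 2, -0.29 (4 of 5) without ZEB1 replicate 3, -0.31 (5 of 5) with totals alone and -0.033 (3 of 5) with length and GC trends removed. IGF2BP2 was at -0.18 (SE 0.17), IGF2BP1 at -0.30 (SE 0.21) and HMGA2, known to raise IGF2BP2 expression, at -0.36 (SE 0.18).

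The mannose 6-phosphate sorting genes, which work with IGF2R, were divided, with 6 of 12 below 0 and a median log2 fold change of 0.04, -0.09 (7 of 12) when libraries were scaled by their totals alone and 0.17 (5 of 12) with length and GC trends removed. On leaving out single libraries it ran from -0.026 without ZEB1 replicate 3 to 0.083 without ZEB1 replicate 2. The retromer subunit genes, which return the receptor to the Golgi, had values above 0. VPS29 had 71.1, 90.0 and 68.8 CPM in ZEB1 replicates 1, 2 and 3, against 38.0, 48.9 and 52.1 CPM in controls, without overlap (log2 fold change 0.72, SE 0.22, edgeR adjusted p = 0.238). VPS35 was at 0.39 (SE 0.17) and VPS26A at 0.45 (SE 0.23). VPS26A is outside the naming rule and was named after its values were seen. It overlapped the controls through ZEB1 replicate 3, at 47.7 CPM against 40.1, 52.1 and 46.7 CPM in control replicates 1, 2 and 3. The retromer genes were not a list of their own, and a shared change of them was not tested. NAGPA, the enzyme that uncovers the mannose 6-phosphate signal, had 1.78, 9.003 and 13.7 CPM in ZEB1 replicates 1, 2 and 3, against 19.1, 19.9 and 17.3 CPM in controls, without overlap (log2 fold change -1.06, SE 0.47, adjusted p = 0.481). PACS1, a sorting connector, had 5.33, 9.003 and 23.2 CPM in ZEB1 replicates 1, 2 and 3, against 33.0, 19.9 and 28.4 CPM in controls. Like IGF2R it was lowest in the 2 shallower ZEB1 libraries. It passed without ZEB1 replicate 3 (log2 fold change -1.89, adjusted p = 0.0253), against -0.98 with all libraries. In that setting 409 of 12095 tested genes passed. PLIN3, which binds the tail of the receptor, was at -0.02 (SE 0.16).

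**Figure D4:**
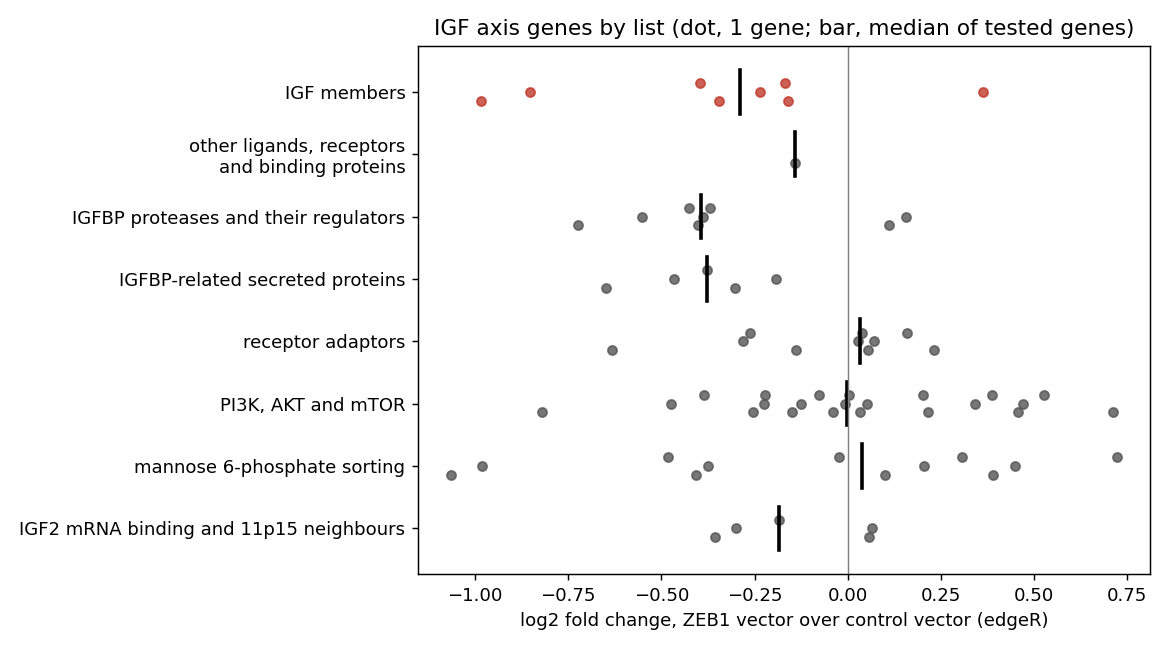
Log2 fold changes, ZEB1 vector over control vector, of the tested genes of each list (edgeR, n = 3 libraries per group). Each dot is a gene, the 8 tested members in red, and the black bar is the list's median, from -0.39 for the proteases to 0.04 for mannose 6-phosphate sorting, where dots reach from -1.06 to 0.72.

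The genes with the most similar values to the 4 members with a mean count of at least 100 were found by the root mean square difference of centred log2 CPM over the 6 libraries. Nearest to IGF2R were KIF3B (0.046), USF2 (0.049) and B4GALT1 (0.053), and nearest to IGFBP4 were LOXL2 (0.045), B4GALT3 (0.049) and TPM2 (0.052). MKKS (0.022), SUZ12 (0.044) and SLC25A5 (0.045) were nearest to IGFBP6, and MTFR2 (0.071), MPG (0.089) and TMEM218 (0.098) to IGFBP7. The differences are on the log2 scale and describe these 6 libraries.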

How the data were processed

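RNA of 6 TC28a2 samples was measured, 3 per vector. The authors deposited raw counts per Entrez gene ID, and the submitters' processing notes name build GRCh38 with HISAT2, featureCounts and Subread, giving no versions. Strand setting, annotation release and collapsing of molecular identifiers are not stated in the labels, so counting intervals and floors (3 counts) cover counting error alone. Symbols came from a RefSeq table of GRCh38.p14, which matched 27745 of 28395 IDs, and strands and transcript lengths from GENCODE v29.

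The test was edgeR 4.0.16, run in R 4.3.3 (quasi-likelihood, robust dispersions, TMM, filterByExpr, group as the only term, two-sided, Benjamini-Hochberg over 11329 genes, threshold 0.05). Standard errors and 95% intervals were derived from each gene's F statistic and are approximate. Log2 CPM used a prior count of 2. The steps were tested on simulated counts. Alternatives included DESeq2 1.42.0, limma-voom (limma 3.58.1), other scalings and filters, thinning to 1277632 counts and leaving out libraries. The members, the lists and the naming rule (all 9 members, called genes and the 3 most counted genes of each list, and the nearest genes of members with a mean count of at least 100) were chosen with earlier results of these data known. Gene set tests were not run. Intervals of shares are exact binomial (scipy 1.17.1). Figures were drawn with matplotlib 3.10.9.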

Additional observations from a re-analysis of the deposited data

How the results depend on the processing

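Counts of calls were compared over 22 alternatives. Without ZEB1 replicate 3, 1 of 8 tested members (IGF2R) and 3 of 64 tested genes of the other lists (PLAU, PACS1 and STC2) passed. In that setting 409 of 12095 tested genes of the whole table passed. An unadjusted p under 0.05 was reached by 1 of 8 members and 8 of 63 genes of the other lists. Of all tested genes, 1065 of 11329 reached it. Under the other 20 alternatives 0 members and 0 genes of the other lists passed. On leaving out single libraries, 0 to 1 members, 0 to 3 genes of the other lists and 1 to 409 genes of the whole table passed, the 409 without ZEB1 replicate 3, against 1 with all libraries. The whole table gave 127 calls with no low-count filter, 178 with DESeq2, 58 with limma-voom, 154 with limma-voom and quality weights, and 1065 at an unadjusted p under 0.05. It gave 2 calls with ZEB1 replicates 1 and 2 left out together, 0 with ZEB1 left out of the table, and 2 with length and GC trends removed. The causes were not tested.

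IGFBP3, IGFBP5 and IGFBP6 kept their sign under every alternative that gave them a value. For IGFBP5 and IGFBP6, whose groups did not overlap, leaving libraries out could hardly turn it. Thinning left IGFBP3 untested. The sign turned for IGF2R (0.12) and IGFBP2 (0.031) with ZEB1 replicates 1 and 2 left out together, where the lone library is assumed to vary like the others. IGF1R was at 0.046 with thinning and at 0.082 with length and GC trends removed, and IGFBP4 at 0.018 with those trends removed. On leaving out single libraries IGFBP7 ran from -0.34 to 0.046, with 0.0094 without ZEB1 replicate 3, and was -0.53 with ZEB1 replicates 1 and 2 left out together. The trend removal, added after seeing the data, covered the 98.3% of tested genes with a transcript length.

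With the replicate number as a block, 1 gene of the table, 0 members and 0 genes of the other lists passed. Deviations of libraries with the same number correlated at -0.032, -0.0095 and 0.0087 over 11329 genes, and ZEB1 replicate 1 correlated best with control replicate 2 (0.046), so the numbers were not taken as pairs. Standard errors were highest among the 8 tested members for IGFBP3 (0.61), IGFBP5 (0.44) and IGFBP2 (0.43), and what part depth has in them was not tested.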
